A study of Mus musculus with 4 samples.

Results

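The 10 genes described here encode cytokine receptor chains that B cells use: Il5ra, Csf2rb, Csf2rb2, Il4ra, Il21r, Il10ra, Il10rb, Il2rg, Il9r and Ifngr1. They were chosen by name, and all 10 were found among the 20599 gene symbols of RNA-Seq libraries from mouse B1a cells (n = 2) and follicular B2 cells (n = 2). Both groups are labelled wild-type C57BL/6 and were littermate controls for mice whose B cells lack Dnmt3a; whether they carried the 2lox allele without recombinase is not stated, and the Dnmt3a-deficient cells were not analyzed here. B1a cells were sorted from the peritoneal cavity as CD23- IgM+ CD5+ B cells, and B2 cells from the spleen as CD21+ B cells with high IgD and low IgM. The sample labels give an age of 4 weeks for both groups, whereas the methods give 4 weeks for B1a and 8 weeks for B2 donors. The effects of cell type and of tissue, and by the methods also that of age, cannot be told apart.

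Cytokine receptors of this class are assembled from a chain that binds 1 cytokine and a chain that several receptors share, and kinases of the JAK family attached to the chains activate STAT transcription factors. The IL-5 receptor is made of the alpha chain Il5ra and the common beta chain Csf2rb, which the receptors for IL-3 and GM-CSF also use. IL-5 is known for its role in the maintenance of B1 cells and eosinophils. The common gamma chain Il2rg pairs with Il4ra, Il21r and Il9r, whereas Il10ra pairs with Il10rb and Ifngr1 with Ifngr2.

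The libraries held between 11032732 and 18588623 counts. Levels are given as CPM, counts scaled to a common library total with TMM. A count of 3, used as the detection floor, equals 0.157 to 0.270 CPM, depending on the library. The B2 libraries resembled each other more (Pearson r = 0.976 over genes of log2 CPM, as a description) than the B1a libraries did (r = 0.87). B1a replicate 2 correlated with the B2 libraries at r = 0.884 and 0.872, no less than with B1a replicate 1. For B1a replicate 1 these values were 0.837 and 0.827. The 8 B cell marker genes summed to between 6965 and 7977 CPM in every library. Of the markers used to sort the cells, Fcer2a, which encodes CD23, was found at 63.7 and 61.0 CPM in B1a cells and at 934 and 896 CPM in B2 cells. Cd5 was found at 15.9 and 22.4 CPM in B1a cells and at 5.46 and 2.25 CPM in B2 cells.

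Of the 10 receptor genes, 3 were higher in B1a cells (Il5ra, Csf2rb and Il9r) and 1 was higher in B2 cells (Il21r) at an adjusted p of less than 0.05 (edgeR quasi-likelihood test, two-sided, Benjamini-Hochberg adjustment over all 12078 tested genes). Csf2rb rose by far the most, 20.3-fold, followed by Il5ra at 2.55-fold and Il9r at 2.19-fold. Il21r was 3.19-fold higher in B2 cells. The other 6 genes did not pass the test. All 10 passed the filter on low counts. As a background, 5.74% of all tested genes passed, 4.24% with the higher level in B1a cells and 1.50% with the higher level in B2 cells. This split differed between settings: 512 genes were higher in B1a and 181 in B2 cells with edgeR, and 444 and 220 with upper quartile scaling. With limma on log2(TPM + 1), where test, filter and scale all differ, it was 266 and 233. Values of the B1a and B2 libraries did not overlap for 7 of the 10 genes, with 4 higher in B1a and 3 higher in B2 cells, against 54.3% of all tested genes. The median log2 fold change (B1a minus B2) was 0.26 over the 10 genes and -0.03 over all tested genes. In bulk RNA-Seq, fewer cells with a transcript and less of the transcript per cell cannot be told apart.

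**Figure D1:**
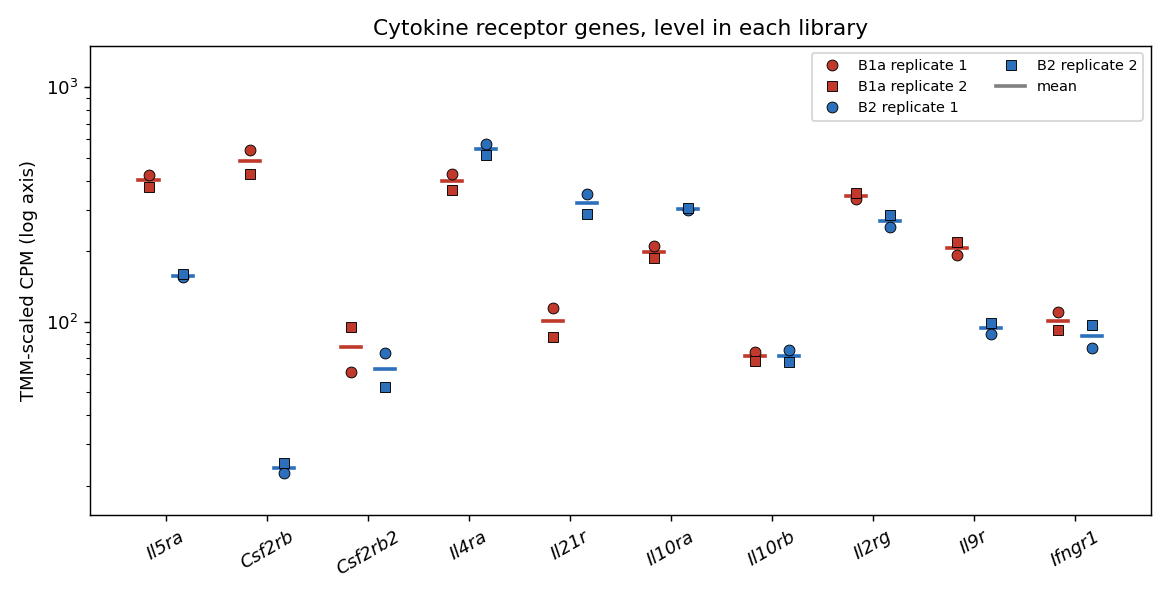
TMM-scaled CPM (log axis) of the 10 receptor genes in each library, with B1a and B2 replicates as separate symbols and short lines for group means. Csf2rb lies at 542 and 427 CPM in B1a cells against 22.7 and 24.9 CPM in B2 cells, and Il21r shows the opposite order.

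Il5ra, the chain that binds IL-5, lies on the minus strand at chr6:106710375-106749037 (GRCm38). Its level was 424 and 377 CPM in the B1a libraries and 155 and 159 CPM in the B2 libraries. Both B1a libraries were thus above both B2 libraries, and Il5ra was well above the counting floor in every library. The log2 fold change was 1.35 (SE 0.13, 95% interval 1.03 to 1.67, edgeR adjusted p = 0.00486). Il5ra passed the test under all 15 alternative settings, with log2 fold changes between 1.10 and 1.43 and adjusted p between 4.9e-25 and 0.0434. The deposited entry holds 1 transcript, so membrane and soluble forms were not separated. Eosinophils also carry the IL-5 receptor. Of 8 eosinophil markers in the files, 5 (Epx, Prg3, Siglecf, Ear1 and Ear6) were at 0 in all libraries, and the markers summed to 0 and 0.450 CPM in B1a and to 2.60 and 0.418 CPM in B2 cells.

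Csf2rb, the shared signaling chain for IL-5, IL-3 and GM-CSF, lies on the plus strand at chr15:78325800-78351001. It was found at 542 and 427 CPM in B1a cells but only at 22.7 and 24.9 CPM in B2 cells, with no overlap. The log2 fold change was 4.34 (SE 0.19, 95% interval 3.89 to 4.80, edgeR adjusted p = 0.00054), and Csf2rb ranked 10 among all tested genes by p-value, where Il5ra ranked 131. The difference passed under all 15 alternatives, with log2 fold changes between 4.00 and 4.50. Mast cells and macrophages also express Csf2rb. Mast cell markers summed to 53.6 and 26.5 CPM in B1a and to 8.76 and 5.02 CPM in B2 cells, where 1 of 9 markers, Fcer1a, was at 0 in all libraries. The marker that passed the test, Cma1, was at 22.0 and 4.68 CPM in B1a and at 0 in B2 cells (edgeR adjusted p = 0.0499). DESeq2 called 2 of these markers higher in B1a cells and limma-voom 0. Ms4a2 went the other way, at 0.986 and 1.08 CPM in B1a and at 5.2 and 3.61 CPM in B2 cells. Macrophage markers summed to 200 and 217 CPM in B1a and to 56.6 and 63.8 CPM in B2 cells, and 1 of 8 tested, Lyz2, passed. Lyz2 made up most of the B1a sums, at 127 and 136 CPM. C1qa, C1qb and C1qc were also higher in both B1a libraries, whereas Csf1r was at 16.9 and 21.9 CPM in B1a and at 21.2 and 18.3 CPM in B2 cells. The part of mast cells and macrophages in the Csf2rb difference was not tested.

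Csf2rb2, the mouse beta chain that serves the IL-3 receptor alone, is the neighbor of Csf2rb. It lies at chr15:78282507-78305721 on the opposite strand, 20078 bases away. Its level was 61.1 and 95.0 CPM in B1a cells and 73.4 and 52.6 CPM in B2 cells. The groups overlapped, and the log2 fold change of 0.31 (SE 0.30, 95% interval -0.43 to 1.05, edgeR adjusted p = 0.649) did not pass. This value rested on single libraries: it was 0.60 without B1a replicate 1 and -0.04 without B1a replicate 2.

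The paired beta chains are identical over stretches at least as long as the reads, which had 74 bases. Of the 74-base windows of their transcripts, 529 were the same in both, 11.3% of those of Csf2rb and 11.3% of those of Csf2rb2. The first 74 coding bases of both (GENCODE M21 transcripts, GRCm38) are given to show how alike they are, with the 2 differing bases in capitals.
Csf2rb: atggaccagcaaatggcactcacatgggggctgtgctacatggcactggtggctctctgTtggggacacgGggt
Csf2rb2: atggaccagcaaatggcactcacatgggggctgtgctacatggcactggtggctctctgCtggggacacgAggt
RSEM divides reads that fit both, and the posterior SD it attached to the count was between 0.125% and 1.22% of the count for Csf2rb and between 0.945% and 1.35% for Csf2rb2. With the counts of both genes added together, an alternative chosen after seeing the data, the log2 fold change was 2.70 (edgeR adjusted p = 0.00145).

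Per transcript length, in TPM, Csf2rb made up 89.1% and 81.7% of the summed beta chain level in B1a cells and 22.2% and 30.5% in B2 cells. The summed level was 299 and 251 TPM in B1a cells and 59.0 and 46.6 TPM in B2 cells. Csf2rb2 itself was found at 39.2 ± 9.38 TPM (SD, n = 2) in B1a cells and at 39.1 ± 9.55 TPM in B2 cells. The transcript length used for Csf2rb2 was 4740 bases in B1a replicate 2 and 4413 bases in the other libraries, so its TPM also depends on how reads were assigned to its isoforms.

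**Figure D2:**
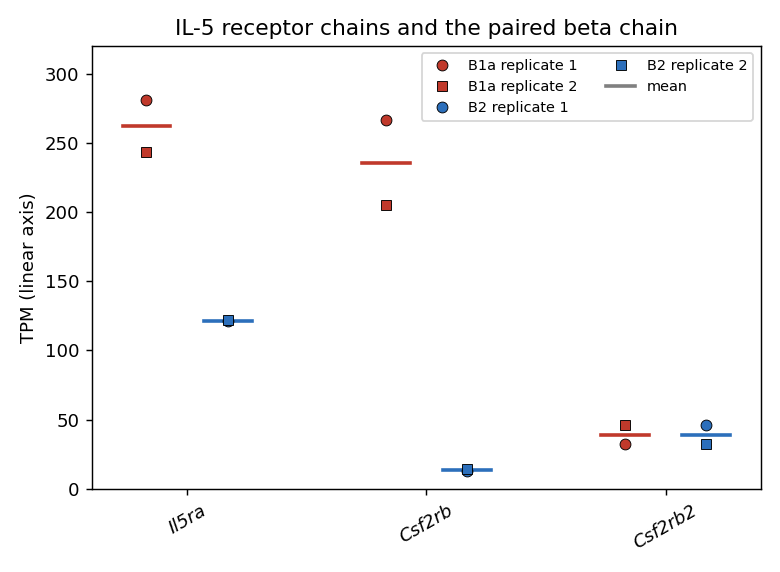
TPM (linear axis) of Il5ra, Csf2rb and Csf2rb2 in each library, with lines for group means. Csf2rb drops from a mean of 235.7 TPM in B1a cells to 13.66 TPM in B2 cells, whereas the B1a and B2 values of Csf2rb2 overlap.

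The transcripts of the IL-5 receptor chains were present in different proportions. In TPM, there were 1.05 and 1.19 Il5ra transcripts per Csf2rb transcript in the B1a libraries and 9.22 and 8.60 in the B2 libraries. The ratio was 7.95-fold higher in B2 cells (exact permutation test, two-sided, p = 0.333, the smallest that 2 against 2 allows). On the log2 scale the ratio differed by -2.99 (B1a minus B2), with values between -3.08 and -2.90 when a library was left out.

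The promoters of the 7 genes found in a RefSeq table (GRCm38.p6), from 250 bases before to 50 bases after the transcription start, were searched on both strands for letters read by factors known in B cells or downstream of these receptors. Csf2rb, Il10ra and Il10rb were not found in the table. The letters CACGTG were found in 0 of the 7 promoters, against 7.15% of all 32851 promoters. The octamer ATGCAAAT, known from B cell promoters and bound by Oct factors, was found in 1 (Il4ra), against 1.74%. TTC and GAA set 3 bases apart, the STAT pattern, were found in 1 (Csf2rb2), against 8.30%, and set 4 bases apart in 1 (Il5ra), against 6.95%. GAGGAA, the core bound by PU.1, was found in 2 (Il5ra and Csf2rb2), against 28.3%. The 3 promoters that held any of these letters are given, with the matches in capitals and on the strand of the gene.
Il5ra, minus strand, chr6:106748988-106749287: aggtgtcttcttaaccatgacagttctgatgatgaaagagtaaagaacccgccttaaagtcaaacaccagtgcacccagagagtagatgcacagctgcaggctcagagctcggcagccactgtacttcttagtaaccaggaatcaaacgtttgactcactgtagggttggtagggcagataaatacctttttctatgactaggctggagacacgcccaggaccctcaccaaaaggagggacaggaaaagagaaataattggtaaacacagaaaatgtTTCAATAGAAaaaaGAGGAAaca
Csf2rb2, minus strand, chr15:78305672-78305971: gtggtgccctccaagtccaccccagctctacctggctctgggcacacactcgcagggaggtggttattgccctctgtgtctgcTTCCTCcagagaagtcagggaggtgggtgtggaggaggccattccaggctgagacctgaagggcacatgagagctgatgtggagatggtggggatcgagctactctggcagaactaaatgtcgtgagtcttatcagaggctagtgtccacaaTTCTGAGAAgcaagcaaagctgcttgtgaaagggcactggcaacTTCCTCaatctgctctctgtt
Il4ra, plus strand, chr7:125552021-125552320: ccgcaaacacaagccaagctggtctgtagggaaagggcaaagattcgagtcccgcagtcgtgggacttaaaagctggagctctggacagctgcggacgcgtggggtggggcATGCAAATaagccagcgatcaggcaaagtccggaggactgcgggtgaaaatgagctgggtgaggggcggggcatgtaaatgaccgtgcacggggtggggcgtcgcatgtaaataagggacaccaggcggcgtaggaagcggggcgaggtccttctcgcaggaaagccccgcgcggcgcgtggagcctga
In Il5ra, the TTC and GAA pair began 28 bases and GAGGAA 42 bases after the start. In Csf2rb2, the pair began 15 bases before the start, and the reverse complement of GAGGAA began 167 bases before and 30 bases after it. The octamer of Il4ra began 139 bases before the start. The promoters also differed in CpG number, from 3 in Csf2rb2 and Il2rg and 4 in Il5ra to 25 in Il4ra, against a median of 7 over all promoters. A match is a description of letters and not of a bound site.

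Il2rg, the common gamma chain, lies on chrX:101264385-101268255. It had the highest TPM of the 10 genes in both groups, at 509.5 ± 14.6 TPM (SD, n = 2) in B1a and 470.4 ± 33.9 TPM in B2 cells. In CPM it was 333 and 355 in B1a cells and 253 and 285 in B2 cells. The groups did not overlap, but the log2 fold change of 0.36 (SE 0.13, 95% interval 0.04 to 0.67, edgeR adjusted p = 0.193) did not pass. It passed only with B1a replicate 1 (0.40) or B1a replicate 2 (0.31) left out, fits in which far more of all genes passed.

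Among the chains that pair with it, Il9r, the IL-9 receptor, and Il21r, the IL-21 receptor, moved in opposite directions. Il9r (minus strand, chr11:32187544-32205283) was found at 193 and 218 CPM in B1a cells and at 89.0 and 98.3 CPM in B2 cells. Both B1a libraries were above both B2 libraries, with a log2 fold change of 1.13 (SE 0.16, 95% interval 0.75 to 1.52, edgeR adjusted p = 0.0151). It passed under 13 of 15 alternatives and did not with limma on log2(TPM + 0.1) (0.89, adjusted p = 0.0541) or on log2(TPM + 1) without a filter (0.89, adjusted p = 0.0601), of a range between 2e-12 and 0.0601.

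Il21r, which receives the signal of follicular helper T cells, lies at chr7:125603252-125634397. Its level was 115 and 86.2 CPM in B1a cells and 352 and 289 CPM in B2 cells. It was lower in both B1a libraries, with a log2 fold change of -1.67 (SE 0.20, 95% interval -2.16 to -1.19, edgeR adjusted p = 0.00885), and passed under all 15 alternatives. T cell markers did not follow a single direction beside it. Cd4, Thy1 and Cd28 were at 0 in both B1a libraries and between 1.39 and 5.38 CPM in the B2 libraries. Cd3e had the same direction, with B1a libraries at 2.6 and 0.899 CPM below B2 libraries at 3.47 and 2.67 CPM. Cd2 was higher in both B1a libraries, and the groups overlapped for Cd3d, Cd3g, Cd8a, Cd8b1 and Lat. Of the 10 markers, 0 were at 0 in all libraries. Summed T cell markers were 629 and 530 CPM in B1a and 200 and 257 CPM in B2 cells, most of it from Cd2, which B cells also express. Their part in the Il21r and Il9r differences was not tested.

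Il4ra, the chain that binds IL-4, lies 23777 bases from Il21r, at chr7:125552271-125579474. It was found at 427 and 366 CPM in B1a cells and at 574 and 514 CPM in B2 cells. The lowest B2 library was above the highest B1a library, with a log2 fold change of -0.46 (SE 0.13, 95% interval -0.78 to -0.13, edgeR adjusted p = 0.128), which did not pass. It passed under 4 of 15 alternatives, among them DESeq2 (adjusted p = 0.0193) and edgeR with a replicate block (adjusted p = 0.0185). The others left out B1a replicate 1 (-0.57) or B1a replicate 2 (-0.35), fits in which far more of all genes passed.

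Relative to the gamma chain, there were 0.393 and 0.316 Il4ra transcripts per Il2rg transcript (TPM) in B1a and 0.695 and 0.553 in B2 cells. For Il21r the ratio was 0.209 and 0.147 in B1a and 0.845 and 0.616 in B2 cells. For Il9r it was 0.297 and 0.313 in B1a and 0.180 and 0.176 in B2 cells. The ratios did not overlap between groups and were 1.76-fold (Il4ra) and 4.11-fold (Il21r) higher in B2 and 1.71-fold (Il9r) higher in B1a cells, each with the smallest p the design allows (exact permutation test, two-sided, p = 0.333).

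**Figure D3:**
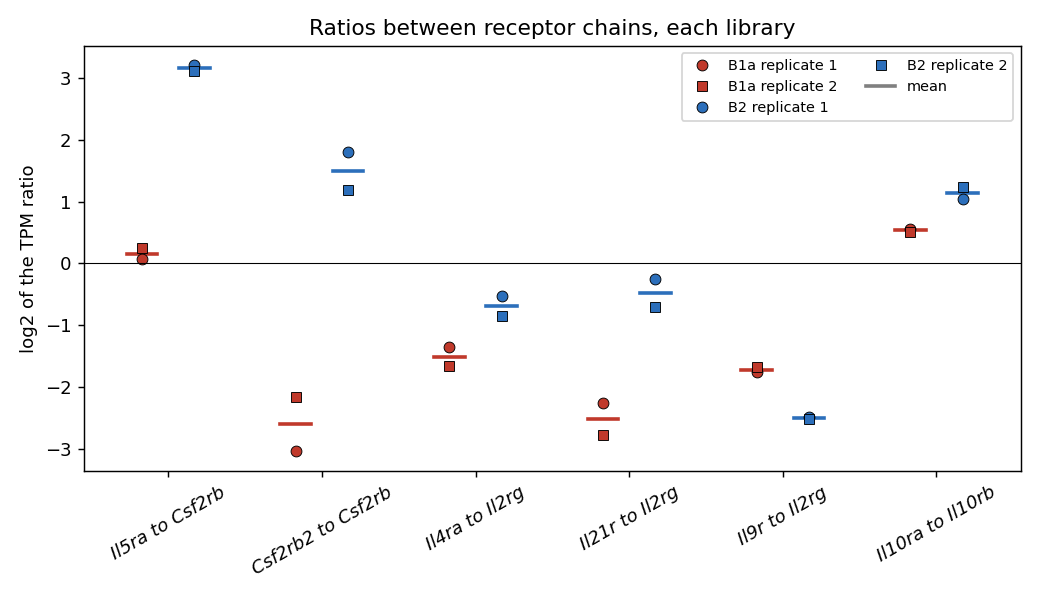
Log2 of the ratio between the TPM of a receptor chain and that of its partner in each library. On a linear scale the ratio of Il5ra to Csf2rb is 1.05 and 1.19 in B1a cells and 9.22 and 8.60 in B2 cells, and only the ratio of Il9r to Il2rg is higher in B1a cells.

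Il10ra, the chain that binds IL-10, lies at chr9:45253837-45269149. Its level was 211 and 187 CPM in B1a cells and 299 and 306 CPM in B2 cells. Both B2 libraries were above both B1a libraries, and the log2 fold change of -0.61 (SE 0.13, 95% interval -0.93 to -0.28, edgeR adjusted p = 0.0584) lay just beyond the threshold. It passed under 10 of 15 alternatives, DESeq2 (adjusted p = 0.00357) and limma-voom (adjusted p = 0.0314) among them. These include the fits with a B1a library left out, in which far more of all genes passed.

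Il10rb, the shared partner of Il10ra that also serves the receptors for IL-22 and type III interferons, lies at chr16:91406157-91425834. It was found at 74.6 and 68.1 CPM in B1a cells and at 75.6 and 67.5 CPM in B2 cells. The groups overlapped, the log2 fold change had a 95% interval from -0.50 to 0.50, and edgeR gave an adjusted p of 0.993. There were 1.47 and 1.43 Il10ra transcripts per Il10rb transcript (TPM) in B1a and 2.05 and 2.36 in B2 cells, 1.52-fold more in B2 cells (exact permutation test, two-sided, p = 0.333).

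Ifngr1, the chain that binds IFN-γ, lies at chr10:19591949-19610229. Its level was 110 and 91.8 CPM in B1a cells and 77.2 and 96.9 CPM in B2 cells. The groups overlapped, and the log2 fold change was 0.22 (SE 0.21, 95% interval -0.30 to 0.73, edgeR adjusted p = 0.648), with the opposite sign (-0.02) on log2(TPM + 1). On that TPM scale the median of all genes also moved, to -0.30.

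**Figure D4:**
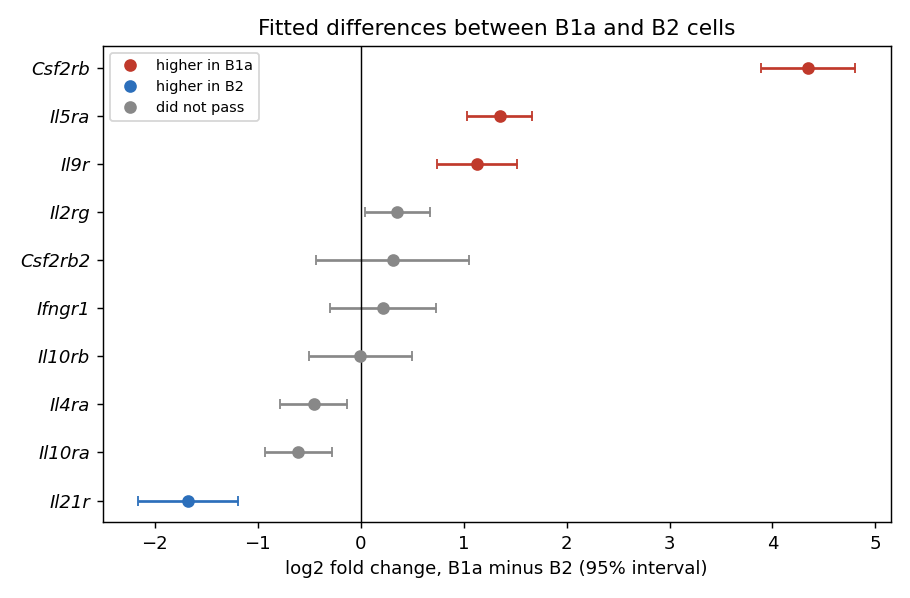
Fitted log2 fold change (B1a minus B2) with its 95% interval for the 10 receptor genes. Csf2rb stands at 4.34 and Il5ra at 1.35, Il21r at -1.67, and the intervals of Csf2rb2, Il10rb and Ifngr1 include 0.

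Ordered by TPM, the genes took different places in the 2 cell types. In B1a cells Il2rg was followed by Il5ra (262.2 ± 26.3 TPM, SD, n = 2) and Csf2rb (235.7 ± 43.5 TPM), whose libraries overlapped, and then by Il4ra at 180.1 ± 22.7 TPM. In B2 cells Il2rg was followed by Il21r (340.9 ± 51.3 TPM) and Il4ra (292.0 ± 26.0 TPM), whose libraries also overlapped, and Csf2rb was the lowest of the 10 at 13.66 ± 0.757 TPM. Il5ra held place 2 in B1a and place 5 in B2 cells, where Ifngr1 overlapped with it. Il21r held place 9 in B1a and place 2 in B2 cells. The summed level of the 10 genes was 1893 and 1729 TPM in B1a and 1851 and 1797 TPM in B2 cells, with no separation of the groups. This holds for TPM only. In CPM the 10 genes add up to more in both B1a libraries than in either B2 library.

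The genes with the pattern most like that of Il5ra across the 4 libraries, by the distance of centered log2 CPM, included Vcl, which encodes the adhesion protein vinculin (distance 0.0700), and Tcf4, which encodes the E protein E2-2 (0.0715). Tcf4 was found at 546 and 512 CPM in B1a and at 214 and 216 CPM in B2 cells. Vcl and Tcf4 passed the test (edgeR adjusted p = 0.0193 and 0.00402).

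Other genes of the pathway were taken from lists of receptor families. Of the 47 other receptor genes, 34 were tested, 5 rose in B1a cells and 0 were called higher in B2 cells by edgeR. Among the alpha chains that share the beta chain with Il5ra, Il3ra, which binds IL-3, was found at 29.5 and 34.8 CPM in B1a and at 7.55 and 6.74 CPM in B2 cells (log2 fold change 2.17, SE 0.41, edgeR adjusted p = 0.0403). Csf2ra, which binds GM-CSF, had a log2 fold change of 0.93 (edgeR adjusted p = 0.373). The list of beta chain receptors thus had 3 of 5 tested genes higher in B1a and a median log2 fold change of 1.35, while that of gamma chain and related receptors had 2 of 9 higher in B1a, 1 higher in B2 and a median of 0.36. In the latter list DESeq2 called 3 genes higher in B1a and 3 higher in B2, limma-voom 2 and 1, and 4 and 3 had an unadjusted edgeR p under 0.05. Beside Il9r, the gene of this list that rose was Crlf2, a chain of the TSLP receptor that pairs with Il7r and not with Il2rg, at 87.8 and 98.1 CPM in B1a and 45.8 and 41.6 CPM in B2 cells (log2 fold change 1.09, edgeR adjusted p = 0.0415). Of 9 tested IL-10 and interferon receptors, 0 passed with edgeR, while 4 were higher in B2 cells at an unadjusted p under 0.05, 2 with DESeq2 and 2 with limma-voom. Ifngr2, the partner of Ifngr1, had a log2 fold change of -0.82 (edgeR adjusted p = 0.0574).

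**Figure D5:**
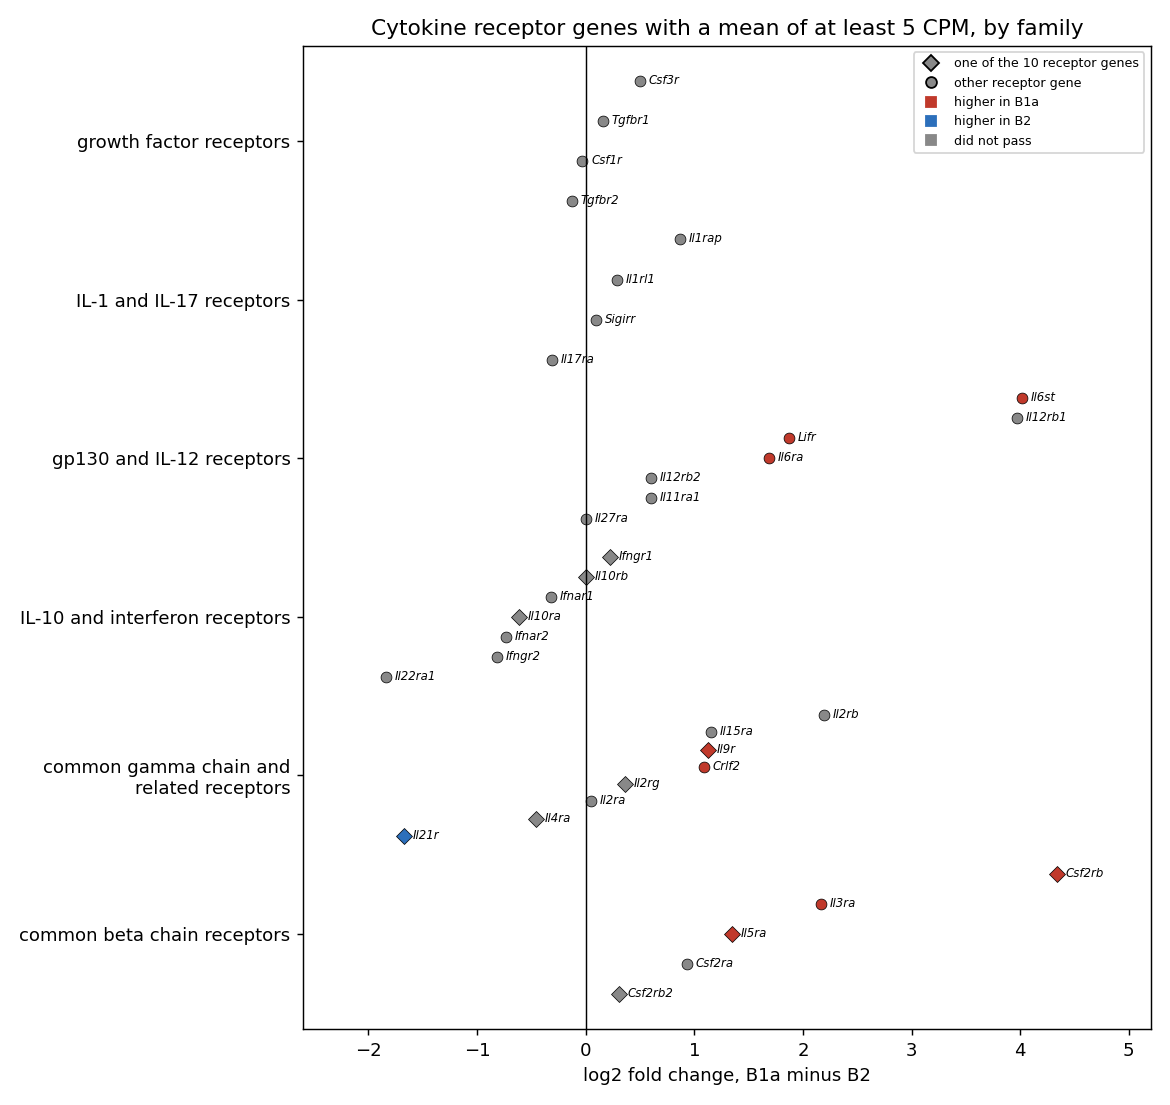
Log2 fold change (B1a minus B2) of the 35 tested receptor genes that average 5 CPM or more, grouped by receptor family, with diamonds for the 10 genes and circles for the others. Genes colored as higher in B1a are found among the beta chain list, the gamma chain and related list and the gp130 and IL-12 list, and Il21r is the gene colored as higher in B2.

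Downstream of the receptors, 15 JAK, STAT and feedback genes were tested, of which 0 were called higher in B1a and 2 higher in B2 cells by edgeR. At an unadjusted edgeR p under 0.05, 5 were higher in B1a and 4 in B2 cells. DESeq2 called 4 higher in B1a and 4 higher in B2, and limma-voom 0 and 4. Stat4, called higher in B2 cells, was found at 30.4 and 34.9 CPM in B1a and at 80.0 and 89.1 CPM in B2 cells (log2 fold change -1.37, edgeR adjusted p = 0.0275). Jak2, the kinase bound by Csf2rb, had a log2 fold change of 0.76 (edgeR adjusted p = 0.0999). Stat5a and Stat5b, which act downstream of IL-5, had log2 fold changes of -0.12 and -0.28 (edgeR adjusted p = 0.879 and 0.565). Cish, a feedback gene that STAT5 induces, differed between the B1a libraries, at 5.02 and 20.3 CPM, and was at 0.520 and 0.209 CPM in B2 cells (edgeR adjusted p = 0.0878).

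The cytokines themselves were hardly found. Of 14 ligand genes, 10 were at 0 in all libraries, among them Il5, Il3, Csf2, Il4 and Il9, which allows up to 0.270 CPM in a library. Il10 was found at 21.4 and 7.91 CPM in B1a cells and was at 0 in both B2 libraries (edgeR adjusted p = 0.0322). Among 9 regulator genes, 2 rose in B1a cells: Bhlhe41, a repressor that binds CACGTG-like letters, was found at 443 and 350 CPM in B1a and at 23.3 and 25.9 CPM in B2 cells (log2 fold change 4.01, edgeR adjusted p = 0.000683), and Zbtb32 at 298 and 245 CPM in B1a and at 3.64 and 2.56 CPM in B2 cells (log2 fold change 6.47, edgeR adjusted p = 0.00054).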

How the data were processed

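RNA-Seq of peritoneal B1a (n = 2) and splenic follicular B2 cells (n = 2) was analyzed; the labels name a kit that removes ribosomal RNA, whereas the paper speaks of polyadenylated RNA, and this was not settled here. The authors aligned reads to mm10 and deposited RSEM expected counts for 21970 entries of RefSeq genes; the methods name v1.25.0 and the submitters' processing notes RSEM 1.2.29. The authors also deposited TPM, and, as a signal value, the posterior SD of each count. RSEM splits a read among the entries it matches. FPKM was not used.

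Counts of entries with the same symbol were added (20599 symbols) and rounded. Low genes were removed with filterByExpr, and TMM-scaled libraries were tested with edgeR 4.0.16 (glmQLFit and glmQLFTest, R 4.3.3) without a replicate block; Benjamini-Hochberg adjusted p-values were compared with 0.05. SEs were derived from the F statistic. The methods name EBSeq, which was not run here. TPM was used for levels between genes and for ratios, tested by exact permutation (scipy 1.17.1). Floors of 3 counts cover counting error only, and library totals lay between 11032732 and 18588623. Per the methods, cells came from 2 mice a group, and p-values measure the spread between 2 libraries a group.

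The genes, gene lists and rules were chosen with earlier results of these data known. Named genes are the 10 receptor genes, those nearest to Il5ra, genes of the lists that passed and those named as partners; some items under this rule are not reported here. Alternatives were DESeq2 1.42.0, upper quartile scaling, limma-voom (limma 3.58.1) with and without a weight for each cell type, a filter of 10 counts in each library, a filter of only 1 count, limma on log2(TPM + 1) and log2(TPM + 0.1) for genes with a mean of at least 1 TPM, log2(TPM + 1) without a filter, unsummed entries, a replicate block and each library left out. The fits were tested on simulated data.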

Additional observations from a re-analysis of the deposited data

How the results depend on the processing

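Il5ra, Csf2rb and Il21r kept their direction and passed under all 15 alternatives. The number of genes called, 693, was 1562 with DESeq2, 1415 with voom weights for each cell type, 1141 without a filter beyond 1 count, 359 on log2(TPM + 0.1), 202 on log2(TPM + 1) without a filter, and 539 to 6143 when a library was left out (6143 without B1a replicate 2, 3953 without B1a replicate 1, where the lone B1a library was assumed to vary like the B2 libraries). Of the 10 receptor genes, 4 to 8 passed when a library was left out (8 without B1a replicate 1, 7 without B1a replicate 2), 3 to 5 of them higher in B1a and 1 to 3 higher in B2. The number higher in B2, 1, was 3 with DESeq2 and 2 with upper quartile scaling, limma-voom, voom weights, at least 10 counts, no filter and log2(TPM + 1). The log2 fold change of Csf2rb2 lay between -0.04 and 0.60 when a library was left out, and that of both beta chains added was 2.70. The cause was not tested. With DESeq2, 64.7% of calls were higher in B1a against 73.9% with edgeR, and on TPM between 53.3% and 57.9%, where the median of all genes moved from -0.03 to between -0.32 and -0.26. Deviations of replicate 1 correlated at 0.068 across groups, which cannot settle whether the replicate numbers pair the samples. A replicate block gave 1481 calls (889 higher in B1a, 592 in B2), and 3 receptor genes higher in B2. Il4ra, Il10ra and Il2rg passed under 4, 10 and 2 of 15 alternatives.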

Other observations

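Receptors that signal through gp130, the shared chain of the IL-6 family encoded by Il6st, were also among the genes higher in B1a cells. The level of Il6st was 460 and 716 CPM in B1a cells against 37.3 and 35.2 CPM in B2 cells (log2 fold change 4.02, SE 0.25, edgeR adjusted p = 0.00145). Il6ra, which binds IL-6, was found at 126 and 151 CPM in B1a and at 40.2 and 45.8 CPM in B2 cells (log2 fold change 1.69, SE 0.20, edgeR adjusted p = 0.00904). Lifr, which binds LIF, was found at 101 and 134 CPM in B1a and at 32.9 and 31.7 CPM in B2 cells (log2 fold change 1.87, SE 0.23, edgeR adjusted p = 0.0100). In TPM its difference was smaller, with 31.4 and 58.0 in B1a and 24.9 and 20.1 in B2 cells. Of 7 tested genes in the list of gp130 and IL-12 receptors, which also holds chains that do not pair with gp130, such as Il12rb1 and Il12rb2, 3 rose and 0 were called higher in B2 by edgeR (0 at an unadjusted p under 0.05, with DESeq2 and with limma-voom), with a median log2 fold change of 1.69.

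Of 7 tested IL-1 and IL-17 receptors, 0 passed with edgeR and 0 with limma-voom, while 1 was higher in B2 cells at an unadjusted p under 0.05 and 1 with DESeq2 (median log2 fold change 0.10). Of 7 tested growth factor receptors, 0 passed with edgeR, at an unadjusted p under 0.05, with DESeq2 or with limma-voom (median -0.03). Il7r, the IL-7 receptor, was at 0 in both B1a libraries and at 2.86 and 2.98 CPM in B2 cells, and did not pass (edgeR adjusted p = 0.134). Erythroid markers summed to 78.8 and 504 CPM in B1a and to 36.1 and 80.8 CPM in B2 cells. Dendritic cell markers summed to between 43.0 and 82.3 CPM and basophil markers to between 0.986 and 5.38 CPM. Neutrophil markers summed to between 228 and 376 CPM, most of it from Cxcr2, at 338 and 206 CPM in B1a and 311 and 280 CPM in B2 cells. S100a8, S100a9, Retnlg and Camp were at 0 in both B1a libraries and at most at 4.7 CPM in a B2 library.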
